A study of Mus musculus with 6 samples.

Results

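The 10 genes described here are the inhibitors of DNA binding Id1, Id2, Id3 and Id4, the inhibitory SMADs Smad6 and Smad7, the pseudoreceptor Bambi, the ligands Bmp2 and Bmp4, and the receptor-regulated SMAD Smad1. They were chosen from their measured levels in these same 6 libraries, so those levels and their covariation are given as a description, with no test. All 10 are among the 43629 mouse gene IDs of the count table, and 6 of them had enough counts to be among the 13445 genes tested. Poly-A RNA came from M1, a mouse neuroblastoma cell line, grown with fetal bovine serum. Every library, controls included, came from cells given doxycycline (4 to 6 µg/ml, for 6 days) to induce a short hairpin RNA. The control group (shNT, genotype WT) is labelled as carrying a non-targeting hairpin and the other group (shIGF2BP1, genotype IGF2BP1 knockdown) a hairpin against Igf2bp1, with 3 libraries each. The sources used here do not say whether replicates were separate cultures or how many clones were used, so spread and p-values measure these 6 samples and may be technical.

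Bone morphogenetic proteins (BMPs) bind pairs of type I and type II serine-threonine kinase receptors, which phosphorylate SMAD1, SMAD5 and SMAD9. These join SMAD4, enter the nucleus and switch on target genes, among which the ID genes are the best known, together with Smad6 and Smad7, whose products feed back on the receptors. ID proteins have a helix-loop-helix but no DNA-binding region, so they bind E proteins and hold them away from DNA. In the sympathetic lineage, from which neuroblastoma arises, BMPs act early in the choice of the neuronal fate, and ID proteins delay differentiation.

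The ID genes share a protein fold but little continuous mRNA sequence, which matters because their levels rose and fell in the same libraries. The runs below are the longest identical stretches between their annotated transcripts, in capitals throughout because every base is shared.

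Id1 and Id2: ATCCTGCAGCA

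Id1 and Id3: GCCGCTGCAGGC

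Id2 and Id3: TAAACTTTTTATAAAAGTT

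The longest of these held 19 bases, against reads of 53 cycles. Words of 53 bases in the annotated transcripts of the 6 tested members were searched for in genes outside these 6. Of 2433 words of Id2, 5 also occurred in Gm6175, which had 0 counts, and none of the words of Id1, Id3, Smad6, Smad7 or Smad1 occurred in such a gene. Among the 6 members, only the ID genes were compared with one another, by the runs above. Counts of the ID genes are therefore not exchanged between them by identical reads.

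Promoters are shown for Id2 and Id3, whose levels went together over the libraries, and for Smad6, whose r with Id2 (0.94) was the highest of a member with an ID gene outside that family. No promoter window was matched for Id1, and the windows matched for Id4, Bmp4 and Smad1 are not shown. The windows hold 250 bases before to 50 bases after the RefSeq start on GRCm38.p6, and capitals mark GGCGCC, a site bound by BMP-type SMAD complexes, GTCTG or its complement CAGAC, which hold the core SMAD binding letters, and GTCTAGAC, the palindromic SMAD binding element. Both strands were searched, and no motif overlapped another. Id2 lies at chr12:25096043-25096342 on the minus strand, Id3 at chr4:136143572-136143871 on the plus strand and Smad6 at chr9:64022010-64022309 on the minus strand.

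Id2 promoter: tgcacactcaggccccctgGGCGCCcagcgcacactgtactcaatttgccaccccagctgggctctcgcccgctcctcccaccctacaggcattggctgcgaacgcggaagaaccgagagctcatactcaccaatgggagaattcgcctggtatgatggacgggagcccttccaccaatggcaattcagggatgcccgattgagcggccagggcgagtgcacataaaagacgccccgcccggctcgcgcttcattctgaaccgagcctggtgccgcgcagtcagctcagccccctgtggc

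Id3 promoter: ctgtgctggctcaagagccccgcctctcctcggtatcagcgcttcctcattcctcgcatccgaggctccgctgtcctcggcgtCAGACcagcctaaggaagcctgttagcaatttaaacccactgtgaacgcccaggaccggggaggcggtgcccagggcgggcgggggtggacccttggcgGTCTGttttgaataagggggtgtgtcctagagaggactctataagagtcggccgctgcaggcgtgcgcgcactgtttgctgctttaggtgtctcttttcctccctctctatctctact

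Smad6 promoter: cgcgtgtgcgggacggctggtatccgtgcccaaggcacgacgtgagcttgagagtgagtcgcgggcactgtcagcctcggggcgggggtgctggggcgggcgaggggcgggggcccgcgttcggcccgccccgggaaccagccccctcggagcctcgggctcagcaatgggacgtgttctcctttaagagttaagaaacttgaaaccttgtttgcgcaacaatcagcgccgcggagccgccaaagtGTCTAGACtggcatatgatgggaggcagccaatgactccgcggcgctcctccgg

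The Id2 window held GGCGCC once, 231 bases before the start, a word found in 11.9% of all 32851 promoters of the table. The Id3 window held CAGAC 167 bases and GTCTG 68 bases before the start, and 49.6% of all promoters hold either at least once. The Smad6 window held neither of these but held GTCTAGAC, searched for after the sequence was seen, with its first base 4 bases before the start. That word occurs in 70 of the 32851 promoters (0.2%). The E-box CANNTG, the word bound by E proteins with their partners, occurred once in Id2 and once in Smad6 and was found in 72.3% of all promoters. The cyclic AMP response element TGACGTCA occurred in none of the 3 windows and in 1.8% of all promoters. These matches describe the letters only.

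The level of the targeted gene is needed to read every direction below. Igf2bp1, an RNA-binding protein of fetal tissue and tumours, stood at 1.25, 5.14 and 6.08 CPM (the count relative to the TMM-scaled library size) in shNT replicates 1 to 3. In the libraries labelled shIGF2BP1 it stood at 2.56, 0.993 and 11.3 CPM. The highest value thus belonged to a library labelled as knockdown, and the labels did not separate the groups by this transcript. Whether a library was mislabelled or the hairpin was not induced was not tested, and either would change what the fold changes between the labelled groups compare. Library totals ran from 25119655 to 35373076 counts. Of 12 neuroblastoma and sympathetic markers, 5 had 0 counts in every library, among them Th, Dbh and Chga, and 6, among them Hand2, Isl1, Gata3 and Mycn, were tested. The list summed to 583, 355 and 370 CPM in shNT and to 549, 545 and 520 CPM in the libraries labelled shIGF2BP1. The 9 fibroblast markers, of which Lum had 0 counts, summed to 634 to 956 CPM in shNT and 579 to 1057 CPM in the other group. The 10 leukocyte markers (Tyrobp, Adgre1 and Cd3e at 0) summed to 8.32 to 15.7 and 4.7 to 6.61 CPM, and the 8 endothelial markers (Emcn and Cldn5 at 0) to 37.4 to 54.5 and 31.5 to 73.8 CPM. The 7 Schwann and glial markers (Sox10, S100b and Foxd3 at 0) summed to 11.9 to 12.9 and 6.16 to 13.4 CPM. Their part in the results was not tested. In bulk RNA, fewer cells expressing a gene and less RNA per cell cannot be told apart.

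Of the ligands, neither Bmp2 nor Bmp4, the BMPs most used to induce ID genes in culture, gave a single count in the 6 libraries. A count of 0 allows up to 3 counts, which corresponds to 0.0851 to 0.114 CPM across libraries, for counting error only. Bmp5, a ligand of the same family, was the BMP with the most counts among the 18 other ligands matched, and stood at 53, 58.5 and 40.5 CPM in shNT. It stood at 62.5, 46.5 and 44.7 CPM in the libraries labelled shIGF2BP1. The groups overlapped, with a log2 fold change of 0.02 ± 0.23 (SE; adjusted p = 0.993 in edgeR). Gdf11, a relative that signals mainly through SMAD2 and SMAD3, had a log2 fold change of 0.26 ± 0.22 (adjusted p = 0.873 in edgeR). Gdf9, known from the oocyte, stood at 0.292 to 1.21 CPM over the libraries and had a log2 fold change of -0.70 ± 0.67 (adjusted p = 0.888 in edgeR). The other 15 matched ligands were too low to test, the largest of them having 32 counts in all.

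Bambi, which resembles a type I receptor without a kinase and so damps BMP and TGF-beta signals, had 1 count in all, in shIGF2BP1 replicate 1. Receptors were present. Scaled per kilobase of exon, the type I receptor Bmpr1a averaged 16.4 CPM per kb, the type I receptor Acvr1 7.92, and the type II receptor Bmpr2 5.87. The lengths here and below are unions of all annotated exons (17983 bases for Bmpr2), so genes can be compared only roughly. The type I receptor Bmpr1b had 1 count. Bmpr2 stood at 103, 131 and 138 CPM in shNT and at 98.1, 72.1 and 90.4 CPM in the libraries labelled shIGF2BP1. The groups did not overlap, with a log2 fold change of -0.52 ± 0.21 (adjusted p = 0.684 in edgeR). Acvr1 stood at 32.5, 34.2 and 73.1 CPM against 27.9, 30.2 and 31.6 CPM, a log2 fold change of -0.64 ± 0.31 (adjusted p = 0.723 in edgeR). These groups did not overlap either, and shNT replicate 3 stood far above the rest. Acvrl1, a type I receptor best known from endothelium, was low, at 2.86 ± 0.62 CPM in shNT and 4.9 ± 0.649 CPM in the other group (SD, n = 3 each; adjusted p = 0.71 in edgeR). Bmpr1a stood at 111 ± 1.6 and 96.8 ± 17.7 CPM (SD, n = 3 each; adjusted p = 0.888 in edgeR).

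**Figure D1:**
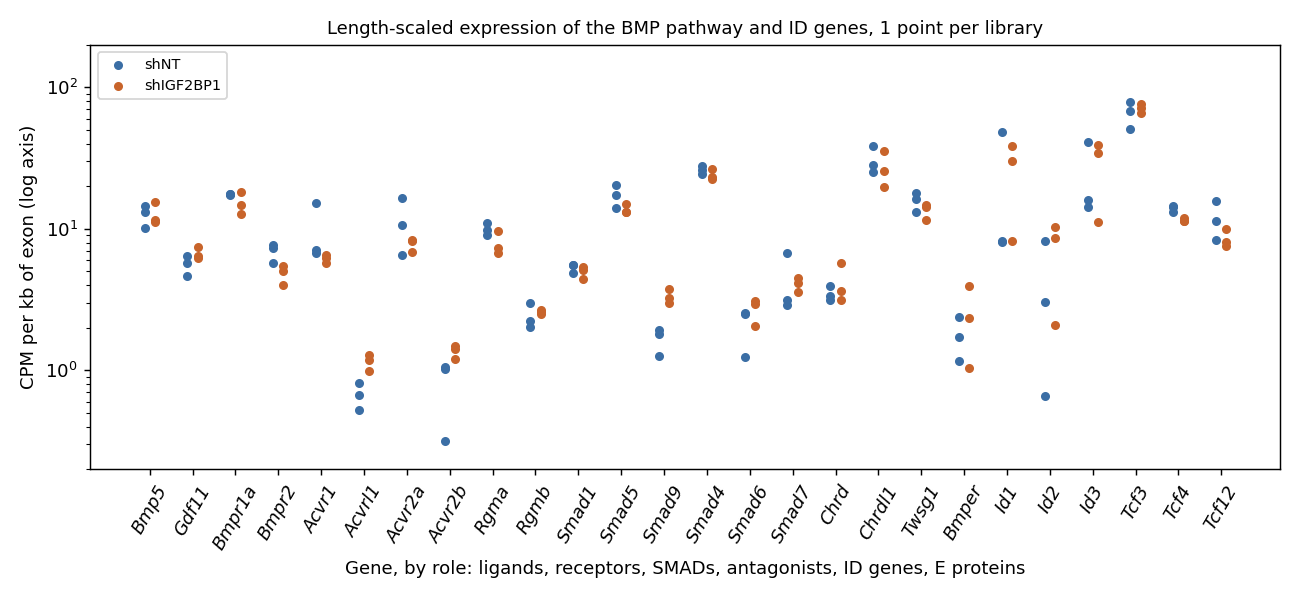
Length-scaled expression (CPM per kb of exon, log axis) of genes of the BMP pathway, the ID genes and the E proteins, ordered by role, with 1 point per library in blue for shNT and orange for the libraries labelled shIGF2BP1. Id1, Id2 and Id3 spread widely within both groups, while Smad1 and Smad4 sit in narrow bands.

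Smad1, the member that carries the BMP signal to the nucleus, was the most even of the 6 tested members. It stood at 30.6, 34.6 and 34.9 CPM in shNT and at 27.7, 32 and 33.7 CPM in the libraries labelled shIGF2BP1. The groups overlapped, and the highest library exceeded the lowest by 1.26 times. Between the groups its log2 fold change was -0.10 ± 0.20 (95% interval -0.55 to 0.35). The standard deviation of its log2 CPM within groups was 0.13, at percentile 5.08 of all tested genes, where the median gene had 0.33. Per kilobase Smad1 averaged 5.15 CPM, its partner Smad5 15.6, the common SMAD Smad4 25.1 and Smad9 2.5. Smad5 had a log2 fold change of -0.33 ± 0.20 (adjusted p = 0.794 in edgeR) and Smad4 of -0.11 ± 0.18 (adjusted p = 0.937 in edgeR).

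Smad9, the remaining SMAD of the BMP branch and a weak activator, had the smallest p of all pathway genes listed. It stood at 10.3, 9.75 and 6.77 CPM in shNT and at 20.2, 17.3 and 16 CPM in the libraries labelled shIGF2BP1. Every library of the second group lay above every library of the first, with a log2 fold change of 0.996 ± 0.27 (95% interval 0.40 to 1.59), and the call was missed at adjusted p = 0.478 in edgeR. Its r with the mean level of the ID genes over the 6 libraries was 0.56, and 0.77 with group means subtracted.

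Id1 had 1664, 317 and 314 counts in shNT and 920, 1574 and 260 counts in the libraries labelled shIGF2BP1. These correspond to 56.1, 9.31 and 9.5 CPM and to 35.1, 44.6 and 9.48 CPM. The values fell into separate sets within both groups, with shNT replicate 1 and shIGF2BP1 replicates 1 and 2 high and the other 3 libraries near one another. Within shNT the highest library exceeded the lowest by 6.03 times (95% counting interval 5.34 to 6.82), and within the other group by 4.71 times (4.13 to 5.39). The log2 fold change between the groups was 0.26 ± 0.70, with a 95% interval from -1.28 to 1.79. Without shNT replicate 1 it was 1.66, and it turned to -0.14 without shNT replicate 2 or shNT replicate 3 and to -0.17 without shIGF2BP1 replicate 2. Id1 (ENSMUSG00000042745) lies on chromosome 2 from 152736251 to 152737410, plus strand, in GRCm38.

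Id3, a close relative with overlapping functions, stood at 73.8, 28.7 and 25.6 CPM in shNT and at 61.2, 70.1 and 19.9 CPM in the libraries labelled shIGF2BP1. The same 3 libraries were high as for Id1, and the groups overlapped. The highest library exceeded the lowest by 2.88 times within shNT (95% counting interval 2.66 to 3.13) and by 3.53 times within the other group (3.21 to 3.88). The log2 fold change was 0.24 ± 0.48, with a 95% interval from -0.83 to 1.31. It was 0.89 without shNT replicate 1, -0.025 without shNT replicate 3 and -0.075 without shIGF2BP1 replicate 2. Id3 (ENSMUSG00000007872) lies on chromosome 4 from 136143497 to 136145755, plus strand, in GRCm38.

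Id2, the member that is also known to bind the retinoblastoma protein, stood at 20, 7.43 and 1.6 CPM in shNT and at 25.2, 20.9 and 5.14 CPM in the libraries labelled shIGF2BP1. Again shNT replicate 1 and shIGF2BP1 replicates 1 and 2 were highest, and shNT replicate 3 was lowest with 53 counts. Its range over the 6 libraries was 15.7 times, against 6.03 for Id1 and 3.71 for Id3. Within shNT the highest library exceeded the lowest by 12.5 times (95% counting interval 9.4 to 16.8). The log2 fold change was 0.82 ± 0.75, with a 95% interval from -0.83 to 2.47, and became 1.92 without shNT replicate 1 and 0.32 without shNT replicate 3. Id2 (ENSMUSG00000020644) lies on chromosome 12 from 25093799 to 25097140, minus strand. Id4 had 0 counts in each library.

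Set against all tested genes, the ID genes varied far more within a group than genes usually did. The standard deviation of log2 CPM within groups was 1.35 for Id1, 1.55 for Id2 and 0.92 for Id3, where the median gene had 0.33. Among genes within 2 times of its own mean level, Id1 exceeded 99.9% of 4244 genes, Id2 99.8% of 2813 and Id3 99.2% of 4943. Since the members were chosen with these levels known, the ranks describe the choice and test nothing. Per kilobase of exon Id3 averaged 26 CPM, Id1 23.6 and Id2 5.48, and the ranges of Id3 (11.1 to 41.2) and Id1 (8.02 to 48.3) over the libraries overlapped.

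**Figure D2:**
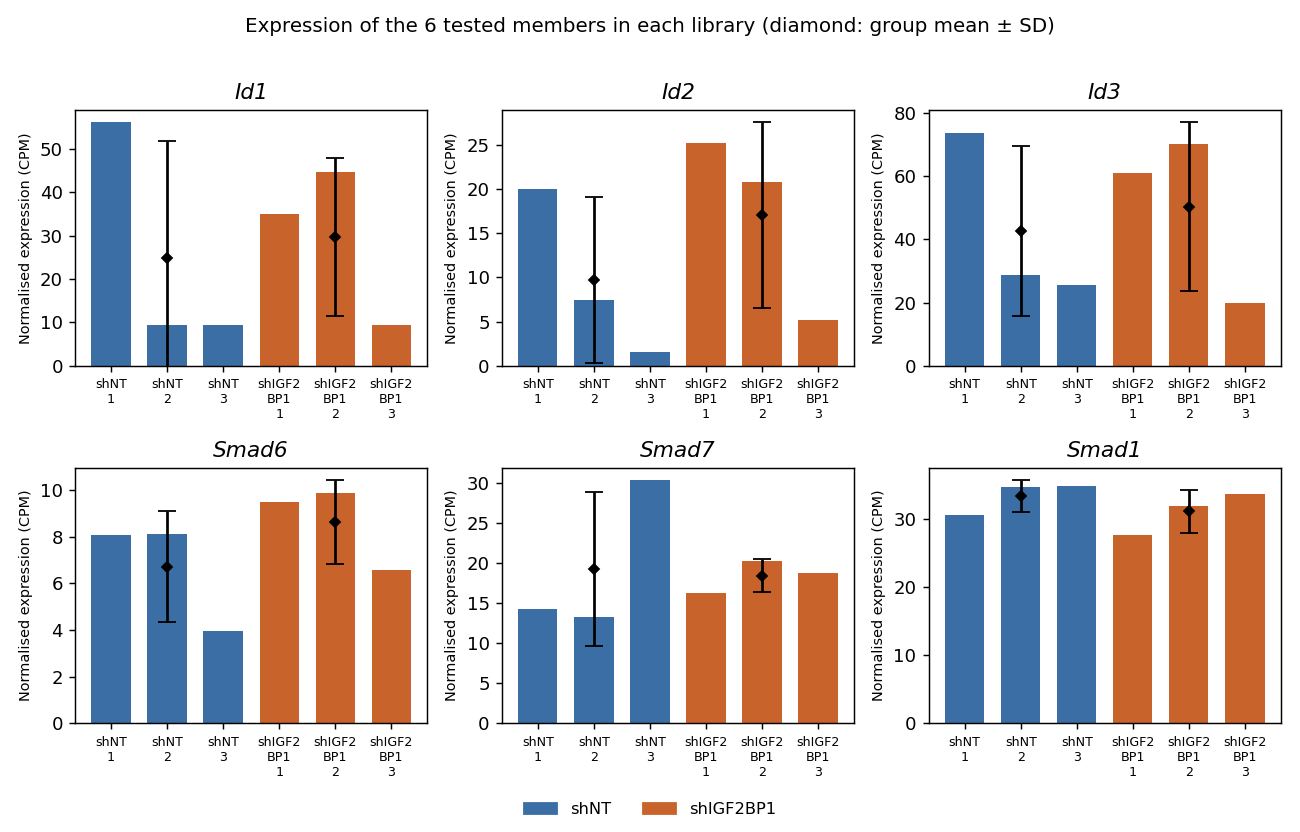
CPM of the 6 tested members in each of the 6 libraries (bars), with the group mean and SD (diamond and whiskers, n = 3 each; for Id1 in shNT the lower whisker would pass below 0 and ends at the axis). The bars of Id1, Id2 and Id3 are high in shNT replicate 1 and shIGF2BP1 replicates 1 and 2, while Smad7 is highest in shNT replicate 3.

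Smad6, which blocks SMAD1 and SMAD5 more than the TGF-beta SMADs, stood at 8.09, 8.1 and 3.96 CPM in shNT and at 9.46, 9.87 and 6.56 CPM in the libraries labelled shIGF2BP1. The lowest values were in shNT replicate 3 and shIGF2BP1 replicate 3, both low in the ID genes, but shNT replicate 2, also low in the ID genes, was as high as shNT replicate 1. The groups overlapped, with a log2 fold change of 0.36 ± 0.36 and a 95% interval from -0.43 to 1.16. The value was 0.092 without shNT replicate 3. Smad6 (ENSMUSG00000036867) lies on chromosome 9 from 63953076 to 64022059, minus strand, in GRCm38.

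Smad7, which blocks BMP and TGF-beta receptors alike, went another way. It stood at 14.2, 13.2 and 30.4 CPM in shNT and at 16.2, 20.2 and 18.7 CPM in the libraries labelled shIGF2BP1. A single library, shNT replicate 3, lay above the other 5, which differed from each other by less. The log2 fold change was -0.07 ± 0.33, with a 95% interval from -0.79 to 0.66, and became 0.42 without that library and 0.017 without shIGF2BP1 replicate 1. The same library had the highest summed level of 26 tested immediate early genes, 2611 CPM against 749 to 1033 CPM in the other 5, and whether the Smad7 level is tied to it was not tested.

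Over the 6 libraries, Pearson's r of log2 CPM was 0.97 for Id1 with Id3, 0.85 for Id1 with Id2 and 0.85 for Id2 with Id3, with Spearman's rho of 0.83, 0.54 and 0.71. The median of the 3 pairs was 0.85, where the median over all pairs of tested genes was -0.0011 and 1.22% of those pairs had r above 0.9. Because Id1 fell into separate sets of libraries, these values say mainly that the same libraries were high, and no relation was tested. After the group means were subtracted the 3 values were 0.98, 0.85 and 0.88, so the shared variation lay within the labelled groups. Without the 2 libraries farthest from the median of the first-named gene they were 0.95, 0.81 and 0.93.

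Smad6 went with Id2 (r = 0.94, rho = 0.89) more than with Id1 (0.65, 0.31) or Id3 (0.68, 0.60), and r with Id2 was 0.63 without the 2 libraries farthest from the median of Id2. Smad7 had negative r with each of Id1, Id2 and Id3, from -0.66 to -0.30, while its rho with Id1 was 0.14. The r with Id2 rested on a few libraries, since it went from -0.66 to 0.62 without the 2 libraries farthest from the median of Id2. The r of Smad6 with Smad7 likewise went from -0.74 to 0.93 without the 2 libraries farthest from the median of Smad6. Smad1 had r of -0.80 to -0.75 with the ID genes over a range of levels that was itself narrow. The median r over all 15 pairs of tested members was -0.30, and its sign was not stable: it was 0.11 without shNT replicate 3, the median rho was 0.14 and the median r with the replicate block was 0.038.

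**Figure D3:**
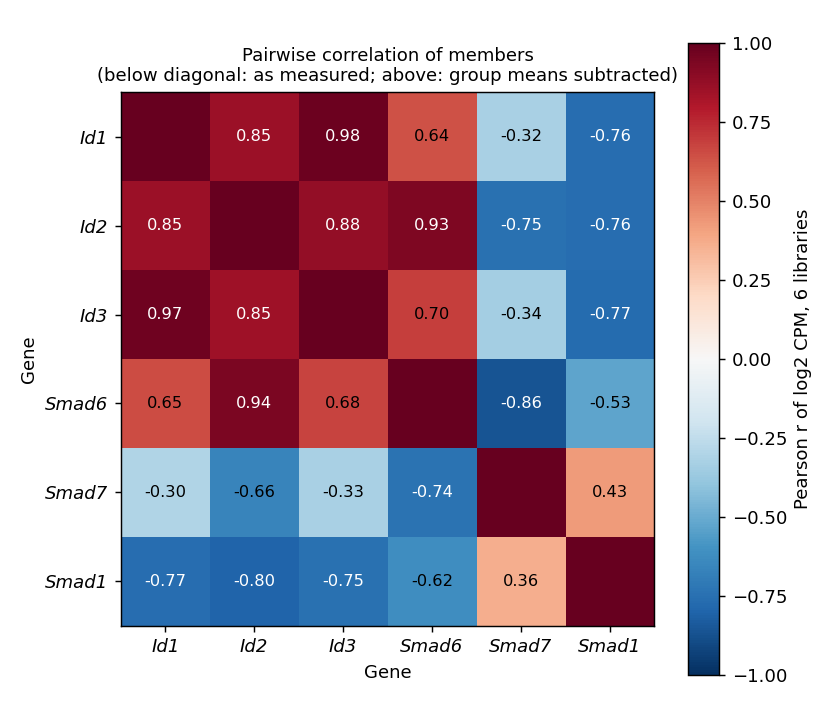
Pearson r of log2 CPM between the 6 tested members over 6 libraries, as measured below the diagonal and with group means subtracted above it. The ID genes and Smad6 have positive r with one another (0.65 to 0.97 as measured), while Smad7 and Smad1 have negative r with them. For Smad7 the sign was not stable. Without the 2 libraries farthest from the median of the other gene, r was 0.62 with Id2 and 0.93 with Smad6. It stayed negative with Id1 (-0.26) and Id3 (-0.22).

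The ID profile, the mean of the centred log2 CPM of Id1, Id2 and Id3, was 1.13, -0.66 and -1.42 in shNT replicates 1 to 3 and 0.93, 1.02 and -0.998 in shIGF2BP1 replicates 1 to 3. Igf2bp1 ran opposite to it. The 3 libraries with the least Igf2bp1 (0.993, 1.25 and 2.56 CPM) were those with the highest ID profile, and shIGF2BP1 replicate 3, with the most Igf2bp1, was low in all 3 ID genes. Pearson's r of log2 CPM of Igf2bp1 with the profile was -0.90 and rho -0.89 over 6 libraries, -0.93 with group means subtracted and -0.93 without the 2 libraries farthest from the median of Igf2bp1. For single genes r was -0.97 with Id3, -0.93 with Id1 and -0.76 with Id2. This relation was noticed after the values were seen and rests on separate sets of libraries, so no test is given. Of all tested genes, 2.26% had an r with the ID profile as low as that of Igf2bp1.

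Other properties of the libraries moved with the ID profile too. Mitochondrially encoded counts took 3.15%, 2.21% and 2.36% of the shNT libraries and 3.35%, 3.69% and 2.52% of those labelled shIGF2BP1. The same 3 libraries were thus high in both, with r of 0.90 and rho of 0.66 between the share and the profile. The libraries also differed in the length of the transcripts they held. In shNT replicate 1 the shortest of 20 bins of genes (median exon length 420 bases) stood 0.36 above its own mean on the log2 scale and the longest (14802 bases) stood 0.37 below, while shNT replicates 2 and 3 stood 0.24 and 0.23 above in the longest. The shortest bin stood at -0.023 and -0.33 in those 2 libraries. In the libraries labelled shIGF2BP1 the shortest bin stood at 0.0059, 0.15 and -0.078 and the longest at -0.029, -0.036 and -0.060. When this length trend was subtracted from each library, the log2 range of Id1 over the libraries went from 2.58 to 2.36, that of Id3 from 1.89 to 1.80 and that of Id2 from 3.92 to 3.82. The part of the mitochondrial share in the ID levels was not tested.

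**Figure D4:**
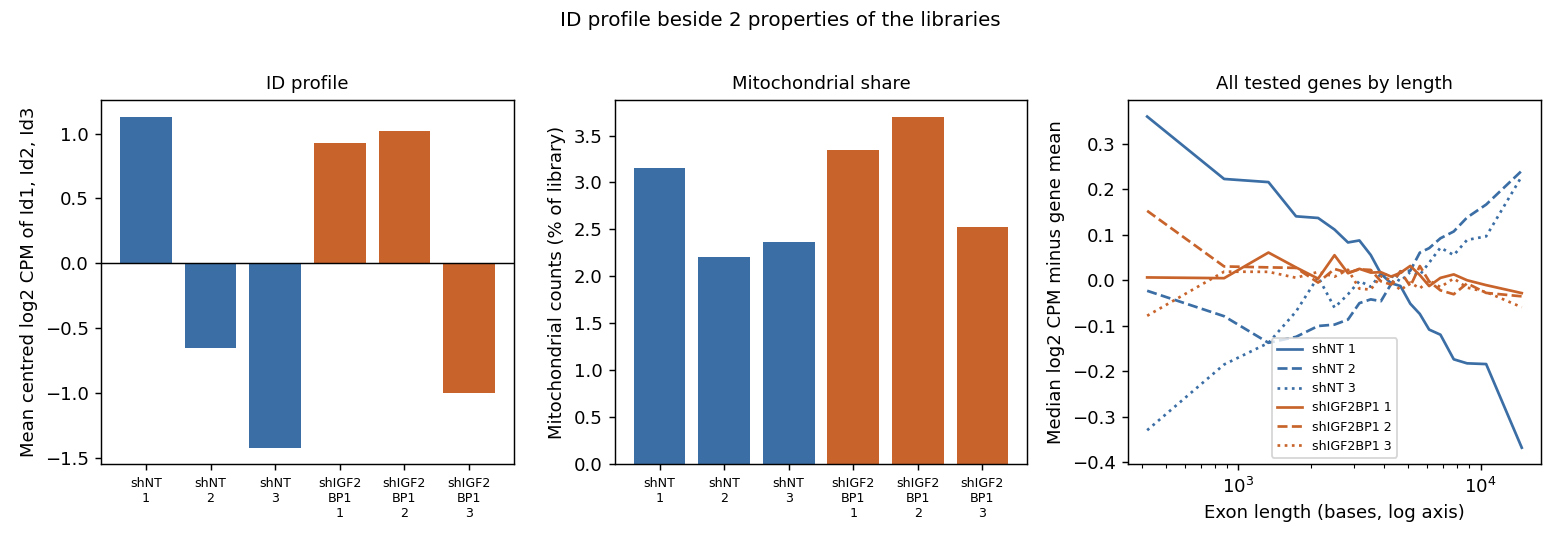
Left, the ID profile (mean centred log2 CPM of Id1, Id2 and Id3) in each library. Middle, mitochondrial counts as a percentage of the library. Right, the median log2 CPM minus gene mean of all tested genes in 20 bins of exon length (log axis), 1 line per library. The ID profile and the mitochondrial share are both high in shNT replicate 1 and shIGF2BP1 replicates 1 and 2, and the length trend is steepest in shNT replicate 1.

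Among 10474 other tested genes with a mean of 5 CPM or more, those most like the ID profile over the 6 libraries were Rpain, 9530082P21Rik, Supt4a, Zfp647 and Glmp, with r of 0.99 each and rho of 0.94 to 1. Their spread was smaller than that of the ID genes. Supt4a, a small subunit of a transcription elongation complex, stood at 30.2, 18.1 and 13.8 CPM in shNT and at 26.4, 28.1 and 17.4 CPM in the libraries labelled shIGF2BP1. Those most opposed were Ttc7b, Atf6b, Nufip1, Zyg11b and Filip1l, with r from -0.998 to -0.987. Zyg11b stood at 101, 182.5 and 245 CPM in shNT and at 107, 104 and 186 CPM in the other group. In all, 292 tested genes (2.17%) had r above 0.9 with the profile, in a count that included the ID genes. Of all pairs of tested genes, 1.22% had r above 0.9. An r this high with the profile was thus not limited to the ID genes. The genes named here are the extremes of a search over 6 libraries, and no relation was tested.

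In the comparison of the labelled groups, 0 of the 6 tested members passed an adjusted p of 0.05 in edgeR's quasi-likelihood test, where 3 of 13445 genes did (0.0223%). None passed an unadjusted p of 0.05, which 7.16% of all genes did, none had groups that did not overlap, as 11.6% of genes had, and none was called by DESeq2 (0.61% of genes) or limma-voom (0.00744%). Since the members were chosen with these levels known, nothing is read from these counts. Of the tested members, 4 lay above 0 and 2 below on the log2 scale (median 0.25), where all tested genes had a median of -0.01.

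The rest of the pathway was counted from 6 lists of 108 genes, of which 64 were tested. None was called by edgeR (smallest adjusted p = 0.478 in edgeR), DESeq2 or limma-voom. At an unadjusted p of 0.05 in edgeR, 9 of 64 (14.1%) passed, where 7.16% of all tested genes did. Of these, 4 were higher and 5 lower in the libraries labelled shIGF2BP1. The groups did not overlap in 9 of 64 (14.1%), where 11.6% of all tested genes had groups without overlap. Of 17 SMADs and intracellular regulators, 4 lay above 0 and 13 below on the log2 scale (median -0.27). Besides Smad9, the ubiquitin ligase Stub1 had a log2 fold change of 0.50 ± 0.20 and the SMAD-binding repressor Zeb2 of -0.65 ± 0.26 (adjusted p = 0.684 each in edgeR). Zeb2 stood at 57.8, 87.3 and 121 CPM in shNT against 49.4 to 64.8 CPM in the other group.

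Secreted antagonists were well expressed. Chrdl1, a chordin-like protein that binds BMPs and is named for its level after the values were seen, averaged 28.9 CPM per kb and stood at 208 ± 47.6 CPM in shNT and 182 ± 54.1 CPM in the other group (SD, n = 3 each; adjusted p = 0.923 in edgeR). Fstl1, a follistatin-like glycoprotein, had a log2 fold change of 0.32 ± 0.20 (adjusted p = 0.804 in edgeR), Twsg1, which binds chordin and BMPs, of -0.22 ± 0.20 (adjusted p = 0.883 in edgeR), and Bmper of 0.48 ± 0.45 (adjusted p = 0.886 in edgeR). Nog (noggin) and Grem1, other antagonists also named after the values were seen, had 0 counts. Of the 8 tested antagonists and modulators, 4 were positive and 4 negative.

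Of 10 other BMP-responsive genes tested, 2 lay above 0 and 8 below on the log2 scale (median -0.14). Atoh8, a bHLH factor induced by BMP in several tissues, stood at 29, 11.9 and 6.96 CPM in shNT and at 9.84, 8.31 and 2.84 CPM in the libraries labelled shIGF2BP1. The shNT libraries had the same order as in the ID profile, and shIGF2BP1 replicate 3 was the lowest of its group, as in the ID genes. Its r with the ID profile was 0.61 over the 6 libraries and 0.99 with group means subtracted. Its log2 fold change was -1.19 ± 0.55 (adjusted p = 0.705 in edgeR). The likeness to the ID profile was not shared by the list. Over its 10 tested genes the median r with the profile was -0.26, and 0 had r above 0.8. All tested genes had a median of 0.02. How many of them reach 0.99 with group means subtracted was not counted. Gata3 and Runx2, transcription factors of sympathetic and bone development, had log2 fold changes of -0.58 ± 0.34 and -0.47 ± 0.28 (adjusted p = 0.779 and 0.789 in edgeR).

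On the TGF-beta side, which shares Smad4 and Smad7, 10 of 16 tested genes were positive and 6 negative, with a median of 0.02. Ltbp1, which stores latent TGF-beta in the matrix, stood at 217, 274 and 420 CPM in shNT and at 102, 101 and 213 CPM in the other group, with no overlap and a log2 fold change of -1.13 ± 0.34 (adjusted p = 0.524 in edgeR). Fn1, the matrix protein fibronectin, had a log2 fold change of -0.90 ± 0.35 (adjusted p = 0.682 in edgeR). Ccn2, listed under its older name Ctgf, was low, at 0.679 ± 0.282 and 1.97 ± 0.658 CPM (SD, n = 3 each; adjusted p = 0.606 in edgeR).

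The E proteins that ID proteins bind were present in every library. Per kilobase of exon, Tcf3 averaged 68.6 CPM, Tcf4 12.8 and Tcf12 10.2, the lengths being unions of all annotated exons. Tcf3 had a log2 fold change of 0.12 ± 0.22 (adjusted p = 0.943 in edgeR). Tcf4 stood at 360.4 to 397 CPM in shNT and 309 to 328 CPM in the libraries labelled shIGF2BP1 without overlap, a log2 fold change of -0.27 ± 0.20 (adjusted p = 0.836 in edgeR), and Tcf12 had -0.46 ± 0.25 (adjusted p = 0.762 in edgeR). Hand2, a bHLH factor of sympathetic development, stood at 480, 262 and 257 CPM in shNT and at 457, 432 and 429 CPM in the other group (adjusted p = 0.816 in edgeR). In shNT it was high in replicate 1, as the ID genes were, but in the other group its 3 values were close. Of 10 tested E proteins and bHLH factors, 3 were positive and 7 negative, with a median of -0.15.

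**Figure D5:**
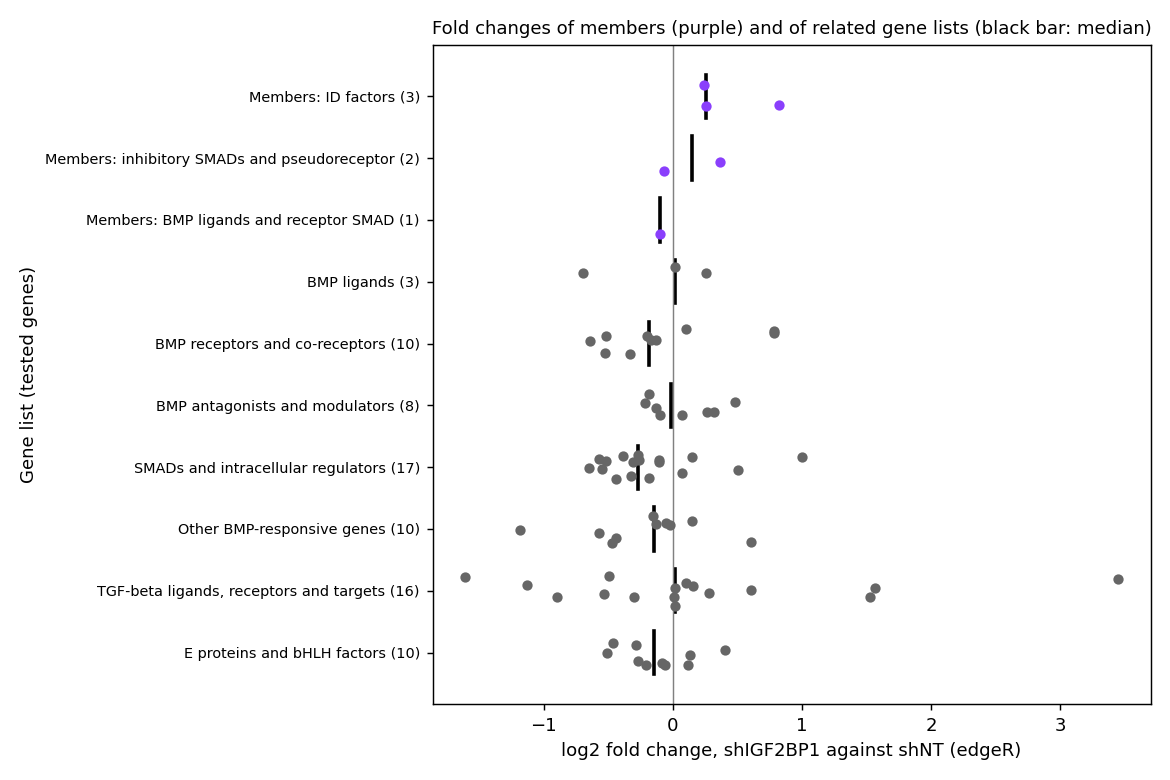
edgeR log2 fold changes (libraries labelled shIGF2BP1 against shNT) of the tested members in purple and of the tested genes of 7 related lists in grey, 1 point per gene, with the list median as a black bar. The ID factors lie between 0.24 and 0.82, and none of the genes shown passed an adjusted p of 0.05.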

How the data were processed

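RNA was measured in 6 libraries of the line M1. Per the submitters' processing notes, bcl2fastq, HISAT2 2.1.0, HTSeq and GRCm38 were used; the annotation release, strand setting and read filters are not stated there. The authors deposited whole-number read counts per gene, not normalised. The table holds 43721 rows, 92 of them spike-ins with 0 counts, and 42548 IDs matched GENCODE M21 symbols. Counting without a stated strand leaves overlapping genes uncertain, and no tested member overlaps another annotated gene.

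Scaling used TMM. The test was that of edgeR 4.0.16 (R 4.3.3; quasi-likelihood F test, robust, two-sided, no covariates) over 13445 genes kept by filterByExpr (minimum count 10, minimum total 15), with Benjamini-Hochberg adjustment over all of them. Covariation used log2 CPM with a prior count of 2. Depth was 25119655 to 35373076 counts, and counting intervals (exact binomial, 95%) cover counting error only. Alternatives were RLE, library size only, no filter, mean CPM of 5 or more, the replicate block, leaving out each library, DESeq2 1.42.0, limma-voom (limma 3.58.1), an adjusted p of 0.01 and, for correlations, a prior count of 0.5, Spearman's rho and group means subtracted. Scripts were tested on simulated data. Named genes were the members, the 3 smallest p of each list, fixed receptors, SMADs and E proteins, and the 5 genes most and least like the ID profile. Members and lists were chosen with earlier results of these data known. Promoters came from RefSeq (GRCm38.p6), with 6 of 10 members matched outside chromosome 18. Some listed genes are not reported here.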

Additional observations from a re-analysis of the deposited data

How the results depend on the processing

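The count of 3 called genes was 138 without a low-count filter, 82 with DESeq2, 18 with the replicate block, and 1 when fitted by limma-voom, at a mean CPM of 5 or more or at an adjusted p of 0.01, and ran from 1 to 5 when single libraries were left out. No member was called under any alternative run, the replicate block included. Of the pathway genes 1, Ltbp1, was called, without the filter only. Left-out libraries moved the log2 fold change from -0.17 to 1.66 for Id1, from -0.075 to 0.89 for Id3 and from -0.28 to 0.42 for Smad7, which was also 0.0042 with library size only, 0.037 under the replicate block and 0.0395 under limma-voom. Id2 and Smad6 kept a positive sign and Smad1 a negative one under all alternatives run. The median correlation of ID genes was 0.71 by Spearman's rho, 0.59 with the replicate block, 0.84 with the length trend subtracted (an alternative chosen after seeing the data) and 0.83 to 0.97 with libraries left out. Over all tested members the median of -0.30 turned to 0.14 by rho and 0.038 with the replicate block, and ran from -0.59 to 0.11 with libraries left out, so its sign is not stable. The cause of these changes was not tested. Deviations from the group means correlated at 0.19, -0.094 and 0.28 between libraries of the same number. Between libraries of unlike number the correlations ran from -0.37 to 0.22. Whether the numbers mark pairs is not settled by these values. With 3 libraries a group, the 95% interval of Id1 spans log2 fold changes from -1.28 to 1.79.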

Other observations

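Immediate early genes, which serum, growth factors and stress induce within minutes, had 5 positive and 21 negative log2 fold changes of 26 tested, with a median of -0.74 in the libraries labelled shIGF2BP1, where all tested genes had 6520 positive and 6925 negative, and 0 were called by edgeR (7 at an unadjusted p of 0.05, all lower, or 26.9%, where 7.16% of all tested genes passed, 426 higher and 536 lower). The summed level of these genes was 1033, 755 and 2611 CPM in shNT and 749, 888 and 779 CPM in the other group, so shNT replicate 3 stood apart. Myc, the oncogenic transcription factor, stood at 6.03, 10.9 and 121 CPM in shNT and 3.17, 6.86 and 8.68 CPM in the other group (adjusted p = 0.574 in edgeR). Atf3, a stress-induced factor, stood at 5.19, 8.13 and 54.8 CPM and at 2.56, 3.8 and 7.37 CPM (adjusted p = 0.606 in edgeR), and Klf10, a TGF-beta-induced factor, at 112, 73.7 and 182 CPM and at 60.4, 82.7 and 48.8 CPM (adjusted p = 0.606 in edgeR). Junb, an AP-1 subunit counted among the BMP-responsive genes and named after its values were seen, stood at 78.6, 37.3 and 115 CPM in shNT and 51.4, 88.4 and 29.7 CPM in the other group. It was low in shNT replicate 2 and shIGF2BP1 replicate 3, as the ID genes were, and high in shNT replicate 3, as they were not.

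Rgmb, a BMP co-receptor, and Tgfbr1, a type I receptor of TGF-beta, named like Acvr2a after their values were seen, had r of 0.84 and 0.92 with the ID profile over the 6 libraries, while Acvr2a, a type II receptor, had -0.81. The median r with the profile was -0.53 over the 17 tested SMADs and regulators and 0.02 over all tested genes. These are descriptions over 6 libraries that share their mitochondrial and length differences.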
